A study of Mus musculus with 6 samples.

Results

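Transcript clusters annotated to immune response, antigen processing, inflammatory response or complement activation were compared between the lateral ventricular choroid plexus of embryonic day 15 (E15) and adult mice. A transcript cluster is the unit that the exon array reports for a gene. Members were the clusters whose biological process text holds 1 of those 4 phrases, or whose symbol begins with H2-, the mouse name for genes of the major histocompatibility complex (MHC). The peptide transporters Tap1 and Tap2 and any cluster annotated to cell adhesion were left out. Of the 3956 clusters present in either of the 2 tables used, 80 were members. The rule used no measured value.

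RNA came from healthy Swiss Webster mice, as 3 pools of E15 pups of mixed sex and 3 pools of adult females. Each E15 pool was labelled as 30 animals and each adult pool as 10, though the study's methods and supplement describe pool sizes differently, and each pool was hybridised to 1 Affymetrix mouse exon array after amplification. The plexus was taken whole, so each pool held epithelium, vessels, stroma and any resident leukocytes. The adults were 10 weeks old by one description and over 3 months by another. Sex and age cannot be told apart in this design, nor can fewer cells of a type be told apart from less RNA per cell. The tables hold 1 log2 value per age, merged from 3 arrays and centred per cluster. The ages lay on either side of 0 for every member but Ccl11. No spread between pools, no test and no comparison of level between genes was therefore possible, and each result is a difference, adult minus E15, on the log2 scale, or the fold it corresponds to. A value of 1 on this scale is a 2-fold difference.

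The choroid plexus forms the barrier between blood and cerebrospinal fluid. Its epithelium, its stromal macrophages and the dendritic cells at its surface are known as a place where the immune system samples the brain. MHC class I molecules show peptides from inside the cell to cytotoxic T cells, and class II molecules show peptides taken up from outside to helper T cells. Interferons raise the expression of both classes and of a wide set of antiviral proteins. Complement is a cascade of blood and tissue proteases that tags and lyses targets, and Toll-like receptors sense products of microbes and of damaged cells.

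The members lay toward the adult plexus more often than the other clusters did. In adult, 28 of the 80 members (35%) were higher by 2-fold or more, against 22.9% of all 3956 clusters. At E15, 13 members (16.25%) were higher by 2-fold or more, against 24.4% of all clusters, and for either direction the figures were 41 members and 47.3%. Counting every difference whatever its size, 50 members (62.5%) were higher in adult, against 45.9% of all clusters. The median difference was 0.38 over the members and -0.16 over all clusters. The members that passed 2-fold were the 41 in the gene-level table, a table that held 45.6% of all clusters and that the authors had limited to clusters with a fold of at least 2 and a corrected p of at most 0.05, so their size of difference was set by that filter. The other 39 members were present because the splicing index table listed them, and none of these 39 reached 2-fold. Of the 28 higher in adult by 2-fold or more, 13 were in the gene-level table alone, so only its filter let them in. Entry by the gene-level table alone held for 17 of the 80 members (21.25%), against 14.8% of all clusters. In the splicing index table, whose filter was not on fold, 15 of 63 members passed 2-fold in adult and 9 at E15. That adult share is close to the 22.9% of all clusters, though those include the gene-level table.

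**Figure D1:**
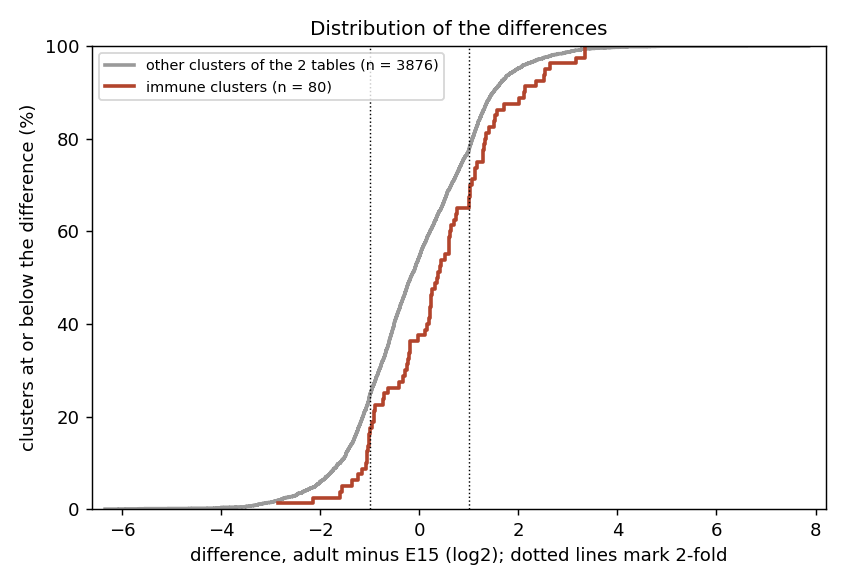
Cumulative share of clusters (%) against the difference between adult and E15 (log2) for the 80 immune clusters and the 3876 other clusters of the 2 tables. The curve of the immune clusters lies to the right of the other curve over most of its length, with medians of 0.38 and -0.17, and its ends, at -2.85 and 3.35, lie inside those of the other clusters.

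Values lay close together at the 2-fold limit on the E15 side and were sparser just below it on the adult side. Tapbpl and Tapbp stood just inside it in adult, both at 1.00, and Psen2 at 0.76 and a cluster of C1s at 0.75 came next below. At E15, C3ar1 and Ctse were just inside at -1.01 each, while Smad3 at -0.99 and Tbkbp1 at -0.95 were just outside. The deposited values of the ages had medians of 0.07 at E15 and -0.08 in adult over all clusters. Setting both medians to 0 added 0.15 to every difference, which took 6 of the 13 members higher at E15 below 2-fold and turned the sign of a single member, Ccl11, from -0.03 to 0.12. The share of the 2-fold members that were higher in adult was 68.3% as deposited and 80.0% after that step, and over all clusters 48.3% and 57.0%.

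**Figure D2:**
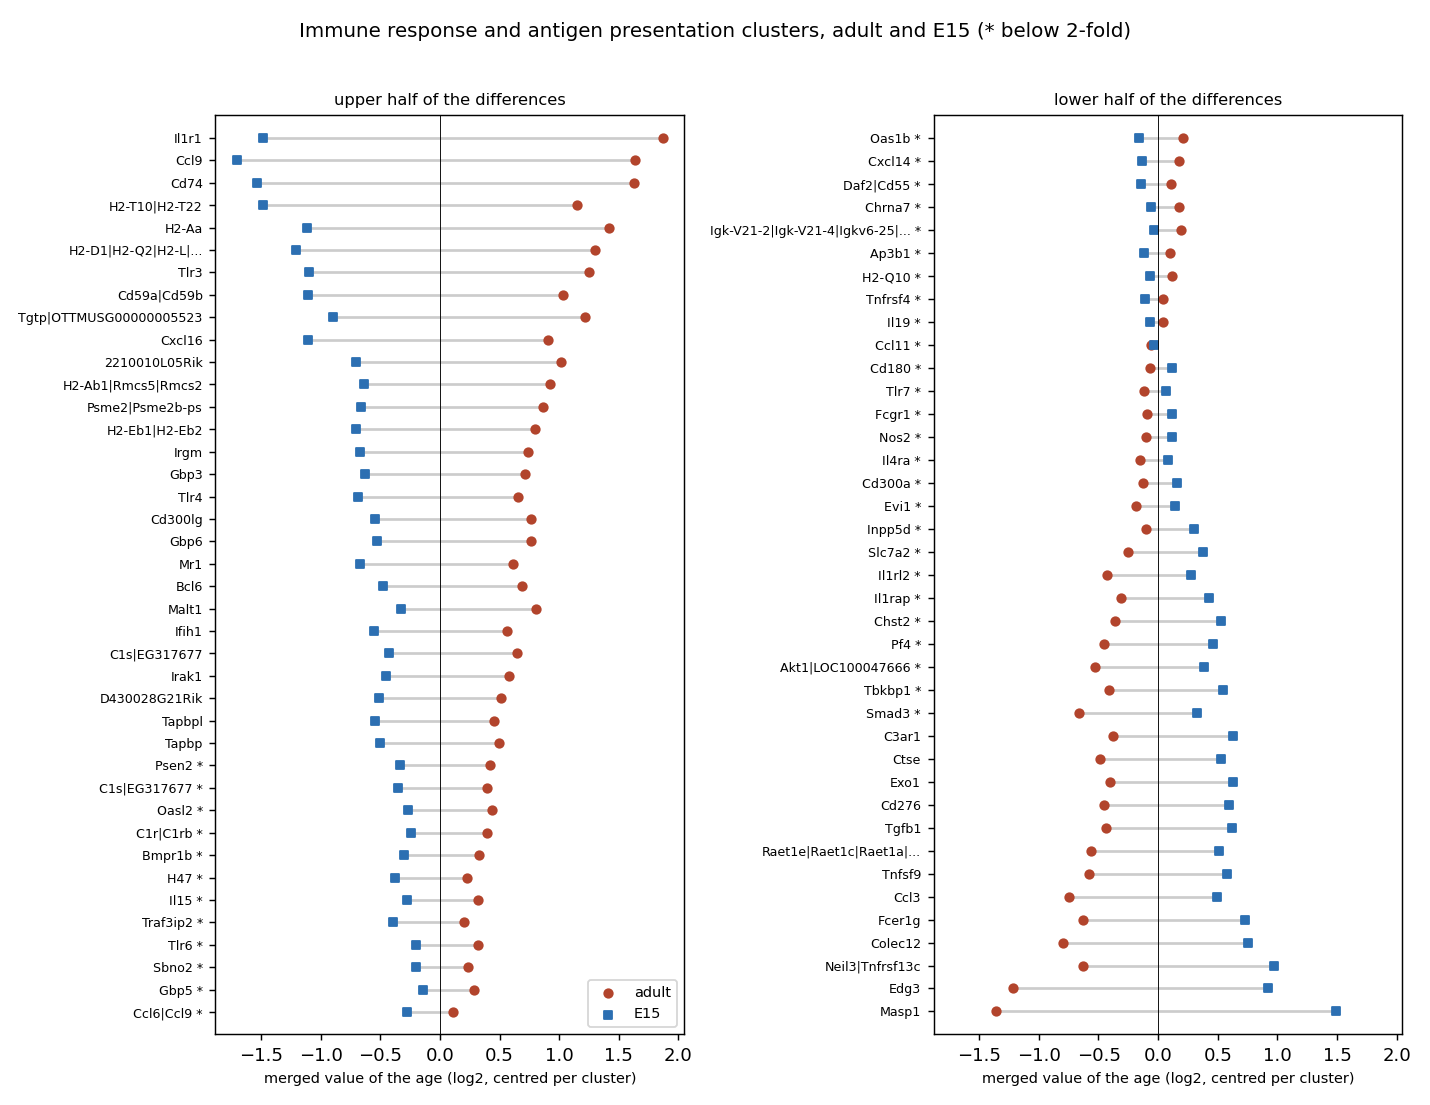
Merged log2 value of the immune clusters, all but 1 of the 80, in adult (circles) and at E15 (squares), centred per cluster and ordered by the difference, with an asterisk at clusters below 2-fold. Il1r1, Ccl9 and Cd74 open the list with differences of 3.35, 3.34 and 3.16, and Masp1 closes it with -2.85.

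The phrases of the rule had different medians. The 61 clusters with immune response in their text had a median of 0.44, with 23 (37.7%) higher in adult by 2-fold or more and 9 (14.8%) higher at E15. The 14 with antigen processing had a median of 1.00, with 8 (57.1%) in adult and 3 (21.4%) at E15. Of the 8, the clusters of H2-Aa, H2-D1, H2-Ab1, Psme2, Tapbp and Tapbpl were in the gene-level table alone, as was Fcer1g of the 3. No difference under 2-fold could appear there. The median fell between Tapbp and Tapbpl, both at 1.00 and just past that limit. For inflammatory response, 21 clusters had a median of -0.18, close to the -0.16 of all clusters, and 3 (14.3%) were higher in adult by 2-fold or more and 4 (19.0%) at E15, both below the shares of all clusters. The 8 complement activation clusters had a median of 0.45 and 2 clusters (25%) past 2-fold on each side, close to the 22.9% and 24.4% of all clusters. A cluster could carry more than 1 phrase, as 25 did.

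The MHC clusters present in the tables were all higher in adult. All 4 clusters of class II genes and their invariant chain, and 3 of the 4 of class I genes were higher in adult by 2-fold or more, and the 8 together had a median of 2.04. The remaining one, the class I gene H2-Q10, stood at 0.12 in adult and -0.07 at E15, a difference of 0.19. Over all clusters, the shares were 45.9% higher in adult and 22.9% by 2-fold or more. Of the 7 past 2-fold, 5 were in the gene-level table alone, whose filter let in no smaller difference, so the count of 7 is a description and not support for a direction. The other 2, Cd74 and the H2-Eb1 cluster, were in both tables, and H2-Q10 was in the splicing index table alone. Of the genes listed for these groups, 8 of 32 for class I and 5 of 12 for class II had an entry in the 2 tables.

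Cd74 is the invariant chain that holds the peptide groove of class II closed until the endosome. It stood at 1.63 in adult and -1.54 at E15, a difference of 3.16 and a fold of 8.96. H2-Aa, the alpha chain of the I-A class II molecule, stood at 1.42 in adult and -1.11 at E15, a fold of 5.79. Its partner beta chain H2-Ab1 was also higher in adult, at 0.93 against -0.64, a fold of 2.95. The cluster of H2-Eb1 and H2-Eb2, the beta chains of the I-E type, stood at 0.80 in adult and -0.70 at E15, a fold of 2.83. Both chains of a class II molecule and the chain that escorts them thus differed in the same direction, with the alpha chain and Cd74 differing by more than the beta chains.

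Some class I clusters carried the symbols of several closely related genes. The cluster carrying H2-D1, H2-K1, H2-L and H2-Q2 holds the classical molecules found on almost every nucleated cell. It stood at 1.30 in adult and -1.21 at E15, a fold of 5.69. The cluster of the non-classical genes H2-T10 and H2-T22 stood at 1.15 in adult and -1.48 at E15, a fold of 6.22. Mr1, which presents vitamin metabolites to a class of innate-like T cells, stood at 0.61 and -0.67, a fold of 2.44. Which of the genes sharing a cluster contributed to its value cannot be read from these tables. With only clusters of 1 symbol, H2-Q10 and Mr1 remained and the class I median was 0.74, against 1.90. The clusters of H2-Aa, H2-Ab1, Mr1, H2-T10 with H2-T22, and H2-D1 with its relatives were absent from the splicing index table, so no number of probe sets was given for them.

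The 250 bases before the start of 4 of these genes are shown because MHC promoters carry short shared elements that can be located by their letters. Sequences are from RefSeq on GRCm38.p6 and are written 5′ to 3′ on the strand of the gene, at chr17:34305617-34305866 (plus strand) for H2-Eb1, chr17:34287824-34288073 (minus strand) for H2-Aa, chr17:35262844-35263093 (plus strand) for H2-D1 and chr17:36042743-36042992 (minus strand) for H2-T22. Capitals mark 3 motifs found on either strand, namely the Y box ATTGG (an inverted CCAAT element), the core of the X box, bound by regulatory factor X, and the core of the interferon-stimulated response element (ISRE), which is GAAA, any 2 bases and GAAA again.
H2-Eb1: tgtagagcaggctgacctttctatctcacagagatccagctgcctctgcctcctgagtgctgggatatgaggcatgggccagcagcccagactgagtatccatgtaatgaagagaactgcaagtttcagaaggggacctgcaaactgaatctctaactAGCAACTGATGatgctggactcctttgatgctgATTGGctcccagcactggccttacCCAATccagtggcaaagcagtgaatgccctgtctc
H2-Aa: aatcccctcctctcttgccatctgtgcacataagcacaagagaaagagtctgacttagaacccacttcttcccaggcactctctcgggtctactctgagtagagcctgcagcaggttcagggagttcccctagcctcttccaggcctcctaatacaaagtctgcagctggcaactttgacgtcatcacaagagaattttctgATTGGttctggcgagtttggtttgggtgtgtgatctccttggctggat
H2-D1: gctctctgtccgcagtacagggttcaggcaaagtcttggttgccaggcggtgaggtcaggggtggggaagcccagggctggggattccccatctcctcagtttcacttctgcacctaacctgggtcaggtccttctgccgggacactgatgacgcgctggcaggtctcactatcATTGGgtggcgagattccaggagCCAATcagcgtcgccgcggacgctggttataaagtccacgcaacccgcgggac
H2-T22: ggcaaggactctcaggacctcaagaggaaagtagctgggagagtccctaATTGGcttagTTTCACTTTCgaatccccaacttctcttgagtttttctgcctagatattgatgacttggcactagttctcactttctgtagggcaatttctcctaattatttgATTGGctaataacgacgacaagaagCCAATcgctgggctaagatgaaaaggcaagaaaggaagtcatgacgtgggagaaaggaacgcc

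The X box core of H2-Eb1 began 92 bases before the start and was followed by a Y box at 59 bases and another, on the opposite strand, at 35. H2-Aa and H2-D1 held Y boxes and no match to the X box letters, and H2-T22 held 3 Y boxes and an ISRE core that began 191 bases before its start. Windows of 300 bases, 250 before and 50 after the start, were present for 68 of the 90 member genes, 87 windows in all. The X box core occurred in 3 of the 87 (3.45%), those of H2-Eb1, H2-Eb2 and Akt1, a member that leaned to E15, and in 1.18% of all windows. A stricter form of it, whose letters are a subset of the core's, occurred in 2 of the 87, those of H2-Eb1 and H2-Eb2, and in 0.07% of all 32851 windows. The Y box occurred in 29.9% of member windows and 37.4% of all windows, in 15 of 34 windows (44.1%) of members higher in adult by 2-fold or more and in 2 of 10 (20.0%) of those higher at E15. In these counts each gene took the difference of its cluster, also where genes share a cluster, as H2-Eb1 and H2-Eb2 do. A match of letters is a description of the sequence only.

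Of genes that supply peptides to class I, 3 members were present, all higher in adult and all in the gene-level table alone, where no difference under 2-fold could appear. Over all clusters, 45.9% were higher in adult and 22.9% by 2-fold or more. Psme2, a subunit of the activator that opens the proteasome, shared a cluster with its pseudogene and stood at 0.87 in adult and -0.66 at E15, a fold of 2.89. Tapbp (tapasin), which bridges class I to the peptide transporter, and its relative Tapbpl, which edits the peptide, differed by 1.00 each. The 2 genes of this list that came in without that filter, outside the rule, were Lnpep at 0.57 and Pdia3 at -0.07, and the other 7 of its 12 genes had no entry. For processing in the lysosome, the protease cathepsin E (Ctse) was the single member and was higher at E15, at -0.48 in adult against 0.53, while cathepsin L (Ctsl), no member, had a difference of 0.79.

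Genes that interferon induces lay on the adult side. All 7 of these members were higher in adult, 4 of them by 2-fold or more, with a median of 1.29, and 2 of the 4 were in the gene-level table alone. Of all clusters, 45.9% were higher in adult and 22.9% by 2-fold or more. The leading gene was Tgtp, a GTPase of the family that attacks the vacuoles of parasites, at 1.22 in adult and -0.90 at E15, a fold of 4.35. Irgm, named Irgm1 in RefSeq and of the same family, stood at 0.74 and -0.67, a fold of 2.67. The guanylate-binding proteins Gbp3 and Gbp6 (named Gbp7 in RefSeq through its accession) differed by 1.34 and 1.29, and Gbp5 by 0.43. The oligoadenylate synthetase genes Oasl2 and Oas1b, sensors of double-stranded RNA, differed by 0.70 and 0.37. Tgtp, Irgm and the Gbp genes were the members annotated to GTP binding, and 63 other clusters with that annotation had a median of -0.12.

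The list of interferon signalling and induced genes held 9 more clusters outside the rule, which help place these values. Its largest was D12Ertd647e, which RefSeq names Ifi27 through its accession, at 2.32 in adult and -2.34 at E15, a difference of 4.66. Bst2, which tethers budding virus to the cell, followed at 2.19 and the membrane protein Ifitm3 at 1.62. The receptor chain Ifnar2 differed by 1.16, and the transcription factor Irf9 that acts below it by 0.83. Over the whole list, 15 of 16 clusters were higher in adult and 8 (50.0%) by 2-fold or more, read against the same shares of all clusters, and Isg20, at -0.02, was the other. Of its 61 genes, 44 had no entry in either table, and nothing is known of these from the values used here.

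The 250 bases before the start of Gbp3, at chr3:142559794-142560043 on the plus strand of GRCm38.p6, show the ISRE core in the middle of this group, with 2 overlapping matches on the opposite strand in capitals.
Gbp3: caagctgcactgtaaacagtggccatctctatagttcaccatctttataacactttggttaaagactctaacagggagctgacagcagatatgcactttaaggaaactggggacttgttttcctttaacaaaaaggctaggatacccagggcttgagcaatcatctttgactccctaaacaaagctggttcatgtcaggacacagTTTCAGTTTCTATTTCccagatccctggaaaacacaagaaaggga

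These matches began 45 and 39 bases before the start. The ISRE core was found in 14.9% of the 87 member windows and 3.44% of all windows. It was present in 7 of 34 windows of members higher in adult by 2-fold or more, in 6 of 43 windows of members below 2-fold and in 0 of 10 windows of members higher at E15 by 2-fold or more. The 7 belonged to Gbp3, Gbp7, Irgm1, Tgtp1, Ifih1, H2-T22 and Cd59a. H2-T22 and Cd59a took the differences of the clusters they share with H2-T10 and Cd59b. Matches to the gamma-activated site TTCNNNGAA, which STAT factors bind, were found in 17.2% of member windows and 8.30% of all, and there the members below 2-fold had the higher share, 25.6% against 11.8% for those higher in adult. The NF-kB site was found in 2 member windows, of Tlr3 and Gbp5, a share of 2.30% against 0.411% of all windows.

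Sensors of microbial products were higher in adult or little different. Of the 8 members in this group, 5 were higher in adult by 2-fold or more and none at E15, with a median of 1.02, and 3 of the 5 were in the gene-level table alone. The shares of all clusters were 22.9% in adult and 24.4% at E15. Tlr3, the endosomal receptor for double-stranded RNA, stood at 1.25 in adult and -1.10 at E15, a fold of 5.10. Tlr4, the receptor for bacterial lipopolysaccharide, stood at 0.65 and -0.68, a fold of 2.52. Ifih1, which senses double-stranded RNA in the cytosol, and D430028G21Rik, named Mavs in RefSeq and the adaptor that it signals through, differed by 1.12 and 1.02. Irak1, a kinase below the Toll-like and interleukin 1 receptors, differed by 1.03. The other receptors were closer to 0, with Tlr6 at 0.52, Cd180 at -0.18 and Tlr7 at -0.19. Outside the rule, the lipopolysaccharide-binding protein Lbp had a difference of 1.44 and Irak2 of 0.57.

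Cytokines and their receptors lay on both sides, with 1 of 7 listed members higher in adult by 2-fold or more and 2 at E15. The list does not hold the members Il1rl2, Il19 and Tnfsf9. Il1r1, the signalling receptor for interleukin 1, had the largest difference of all members, at 1.87 in adult and -1.48 at E15, a fold of 10.23. Its accessory chain Il1rap went the other way, at -0.31 in adult and 0.43 at E15, and so did Il1rl2, a receptor of the same family, at -0.43 and 0.27. Tgfb1, a growth factor that restrains T cells, was higher at E15, at 0.62 against -0.44 in adult, a fold of 2.09. Its relatives outside the rule stood on both sides, with Tgfb2 at 4.21 and Tgfb3 at -1.21. The cluster of Neil3 and Tnfrsf13c stood at -0.63 in adult and 0.97 at E15, a fold of 3.04. It joins a DNA repair glycosylase to the receptor for a B cell survival factor, and the tables do not tell these apart. Il15 differed by 0.60, Tnfrsf4 by 0.15, Il19 by 0.11 and Il4ra by -0.24.

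Over the full cytokine list, 22 clusters had a median of 0.37, with 5 past 2-fold on each side (22.7%), close to the 22.9% and 24.4% of all clusters. Receptor chains outside the rule that were higher in adult included Il13ra1 at 1.44, Il10rb at 1.14 and Il17rb at 1.08. Il17rd was lower in adult, with clusters at -1.17 and -1.07, and the macrophage growth factor receptor Csf1r stood at -0.92.

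Chemokine members also lay on both sides, 2 of 7 higher in adult by 2-fold or more and 1 at E15. Over the full list of 13 clusters the shares were 23.1% and 15.4%, against 22.9% and 24.4% of all clusters. Ccl9, which attracts dendritic and other myeloid cells, stood at 1.64 in adult and -1.70 at E15, a fold of 10.15. A second cluster that joins Ccl9 with Ccl6 stood at 0.11 and -0.27, a difference of 0.39, so the size for Ccl9 depended on the cluster. Cxcl16, a chemokine anchored in the membrane that also takes up oxidised lipid, stood at 0.91 in adult and -1.10 at E15, a fold of 4.03. Ccl3, an inflammatory chemokine, was higher at E15, at 0.50 against -0.75, a fold of 2.37. The platelet chemokine Pf4 leaned the same way, with a difference of -0.91. Cxcl14 and the eosinophil chemokine Ccl11 differed little, by 0.31 and -0.03. Among receptors outside the rule, Cxcr4 stood at -0.87 in adult and 1.12 at E15.

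Complement clusters lay on both sides. In the lectin pathway, Masp1, the protease that starts it, had the largest difference of any member toward E15, at -1.36 in adult and 1.49 at E15, a fold of 7.23. Colec12, a membrane scavenger receptor with a lectin domain, stood at -0.79 and 0.75, a fold of 2.92. It was on the component list, though its text carried immune response and not complement activation. The lectin-pathway ficolin Fcna, outside the rule, differed by -0.18. In the classical pathway, C1s and C1r, the protease pair that binds C1q, lay toward adult. The clusters of C1s differed by 1.07 and 0.75, and that of C1r and C1rb by 0.64. No gene of the alternative and terminal pathways had an entry, out of 11 listed.

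Among regulators, Cd59a and Cd59b, which block the membrane attack complex at the cell surface, shared a cluster at 1.04 in adult and -1.11 at E15, a fold of 4.41. The cluster of the decay-accelerating factors (Daf2 and Cd55), which act earlier by restraining the convertases, differed by 0.25. C3ar1, the receptor for the C3a fragment, was higher at E15, at 0.63 against -0.38. Vitronectin (Vtn), outside the rule, differed by 1.34. Keeping only clusters with 1 symbol left Masp1 and Colec12 of the components and C3ar1 of the regulators, which turned the medians of these lists from 0.64 and 0.25 to -2.20 and -1.01.

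**Figure D3:**
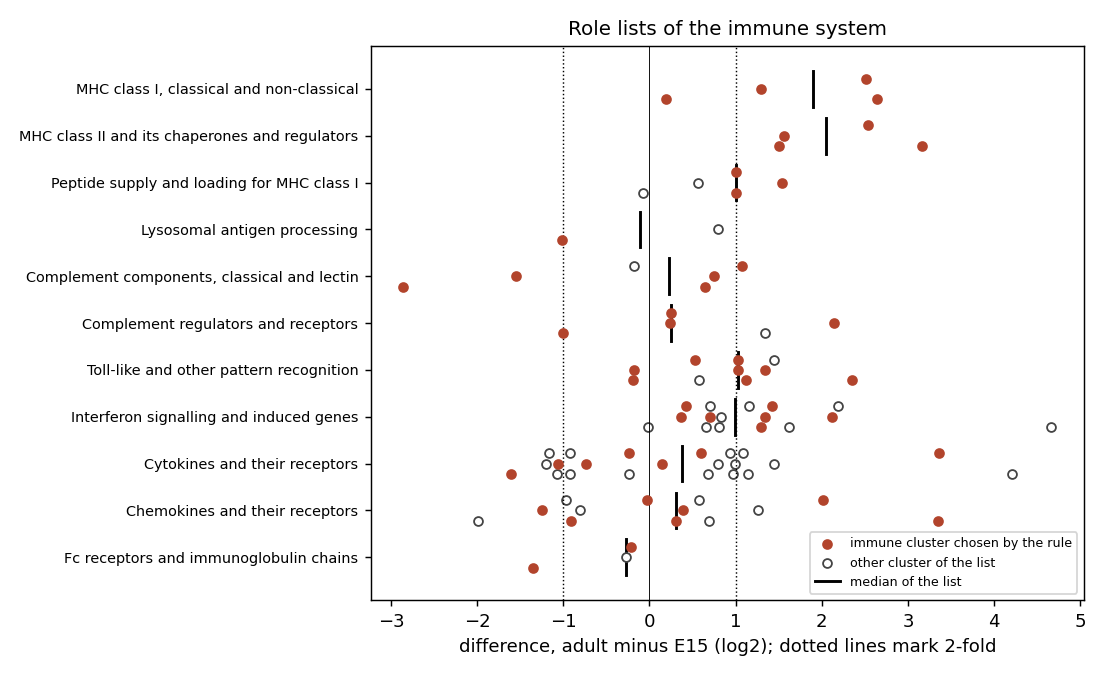
Difference between adult and E15 (log2) of each cluster in 11 role lists, filled where the rule chose it and open where it did not, with a bar at the list's median. MHC lists and the Toll-like and interferon lists lie to the right, with medians of 1.90, 2.05, 1.02 and 1.00, while complement, cytokines and chemokines spread over both sides and the 3 Fc receptor clusters lie to the left.

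Members outside these role lists numbered 28 and had a median of -0.25, against 0.67 for the 52 members in a list. In the lists, 24 of the 52 (46.2%) were higher in adult by 2-fold or more and 8 (15.4%) at E15. Of the 17 members in the gene-level table alone, only Tnfsf9 lay outside the lists, so the medians cover unlike shares of clusters past its filter. The lists were also chosen with earlier results of these data known. Of the 28, 4 (14.3%) were higher in adult by 2-fold or more and 5 (17.9%) at E15, both below the 22.9% and 24.4% of all clusters. In adult, 2210010L05Rik (named Mfsd6 in RefSeq) stood at 1.01 against -0.70, a fold of 3.29. Cd300lg, an immunoglobulin-like receptor of vessels, and Bcl6, a repressor that shapes B cell and T cell fates, differed by 1.31 and 1.16. Malt1, a protease in the path from antigen receptors to NF-kB, differed by 1.13.

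At E15 the largest of them was Edg3, a sphingosine 1-phosphate receptor named S1pr3 in RefSeq, at -1.22 in adult and 0.92 at E15, a fold of 4.41. Ligands that tune lymphocytes were among the rest. Tnfsf9, which stimulates T cells through 4-1BB, had a difference of -1.16, the Raet1 cluster, ligands of an activating receptor on natural killer cells, -1.07, and Cd276, of the B7 family, -1.05. Exo1, a nuclease of DNA repair, had -1.03.

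The other 19 lay below 2-fold. Those higher in adult ran from Psen2 at 0.76 through Bmpr1b at 0.63, H47 at 0.60, Traf3ip2 at 0.59, Sbno2 at 0.44, Chrna7 at 0.24, an immunoglobulin kappa cluster at 0.23 and Ap3b1 at 0.22 to the Il19 given above. Those higher at E15 ran from Nos2 at -0.22 and Cd300a at -0.28 through Evi1 at -0.33, Inpp5d at -0.41, Slc7a2 at -0.63, Chst2 at -0.89 and Akt1 at -0.92 to Tbkbp1 and Smad3. Several of them act in signalling or metabolism in many cell types, Akt1 and Smad3 for example, and carry the immune annotation among others.

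Of 18 pairs of member clusters with at most 3 protein-coding genes between them, 14 had differences of the same sign, pairs of clusters of the same gene included. The pairs overlap, since the H2, C1r with C1s, and Gbp with Bmpr1b clusters each enter several of them. No share was computed for other pairs, and 62.5% of members were higher in adult, so the count is a description only. RefSeq gene order placed H2-Ab1, H2-Aa and H2-Eb1 side by side, and all 3 clusters were higher in adult. Gbp5, Gbp7 and Gbp3 likewise adjoin one another and differed by 0.43, 1.29 and 1.34. By contrast Il1r1 and Il1rl2 are adjacent genes with differences of 3.35 and -0.70. Ccl9 and Ccl3 lie with 1 gene between them and had differences of 3.34 and -1.24, and Masp1 and Bcl6 have 3 genes between them with -2.85 and 1.16.

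Products of the members were more often annotated to membranes and the extracellular space than those of other clusters, and less often to the nucleus and cytoplasm. Integral to membrane was given for 39 members (48.75%) and for 28.2% of the other clusters, extracellular for 27 (33.75%) against 14.7%, nucleus for 8 (10.0%) against 22.8% and cytoplasm for 9 (11.25%) against 21.1%. The 5 members annotated to the endosome, where class II is loaded and Tlr3 signals, held 4 that were higher in adult and 1, Ctse, that was higher at E15, all by 2-fold or more. The 43 other endosome clusters also lay toward adult, 33 of them higher there, with a median of 0.71. Both members with sugar binding, Masp1 and Colec12, were higher at E15, and the 32 other clusters with that annotation had a median of -0.60, with 11 (34.4%) higher at E15 by 2-fold or more. Measurement support was slightly thinner than elsewhere, with a median of 10 probe sets over the 63 members that had a number, against 13 over all clusters.

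Marker genes of macrophages lay on the opposite side from the MHC genes. Of 33 markers of macrophages and microglia, 10 had an entry, and 9 of the 10 were higher at E15, 4 of them (40.0%) by 2-fold or more, with a median of -0.92, where 24.4% of all clusters were higher at E15 by 2-fold or more and the median was -0.16. The largest were F13a1 at -2.76, Mrc1 at -2.36 and Lyve1 at -2.32, genes of tissue-resident macrophages, followed by the signalling chain Fcer1g at -1.36. Fcer1g is also a member and stood at -0.63 in adult and 0.73 at E15, and Fcgr1, the other Fc receptor member, differed by -0.21. Ptprc, the common leukocyte antigen, differed by -0.15. None of 14 markers of dendritic and B cells had an entry, and of T cells and natural killer cells there was Lck, at -0.54. Of granulocyte and mast cell markers there was Kit, at -3.02. The part of these cells in the differences of the members was not tested.

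Markers of other cell types also differed between the ages. All 7 endothelial clusters were higher at E15, 6 of them (85.7%) by 2-fold or more, with a median of -1.34, and the 11 erythroid clusters were all higher at E15, 6 of them (54.5%) by 2-fold or more, with a median of -2.25. Markers of the plexus epithelium lay toward adult, with 7 of 8 clusters higher there, 4 of them by 2-fold or more (50.0%, against 22.9% of all clusters), and a median of 1.49. Cldn2 differed by 2.10, Kl by 4.78, the cluster of Prlr by 7.87 and the cluster that Prlr shares with Agxt2 by 6.60, while Enpp2, Trpm3 and Igf2 differed by 0.88, 0.32 and 0.29 and Lmx1a by -1.14. With 1 cluster per gene, so that Prlr counted once, the median was 0.88. Their part in the member values was not tested either.

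**Figure D4:**
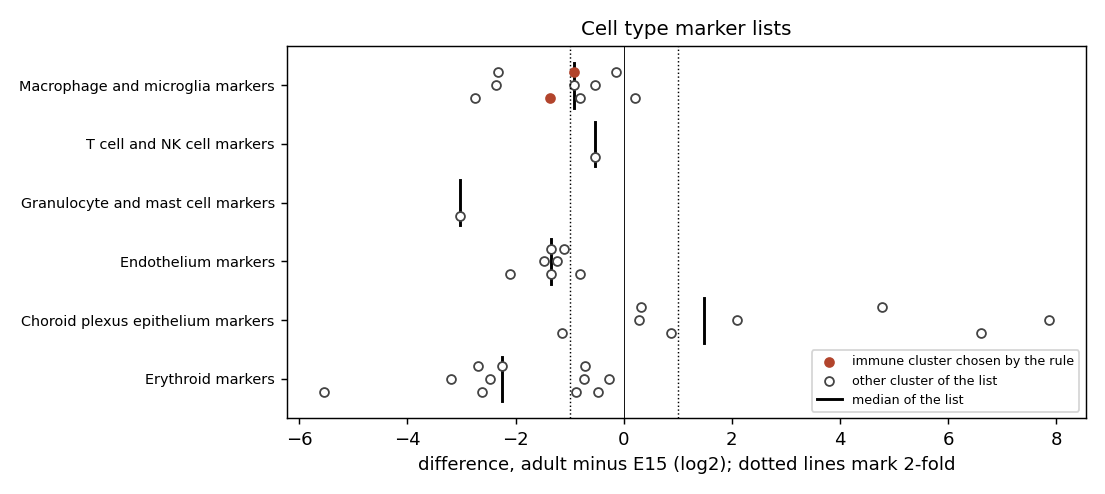
Difference between adult and E15 (log2) of each cluster in 6 lists of cell type markers, filled where the cluster is also an immune member, with a bar at the median. Macrophage, endothelial and erythroid markers lie to the left, with medians of -0.92, -1.34 and -2.25, and epithelial markers to the right, with a median of 1.49.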

How the data were processed

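The gene-level log2 values were made by the authors with Affymetrix Power Tools by the RMA method (chip medians) and were deposited as 1 value per age merged from 3 arrays. The deposited gene-level table keeps clusters that differed at least 2-fold with a corrected p up to 0.05, and the splicing index table those with a splicing p up to 0.05 and an index from 0.5 up, with a number of probe sets per cluster. Columns of fold change, direction and splicing index hold the authors' own comparisons and were not used. The genome build and software versions are not given in the sources used here. Other clusters of the array were not analysed here.

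The tables hold 1805 and 3369 clusters, 1218 of them in both with identical values, and were joined to 1 entry per cluster. Differences, counts at 2-fold and medians were computed in Python 3.11.15 with pandas 2.3.3 and numpy 2.4.6 and drawn with matplotlib 3.10.9, and the steps were tested on simulated data. With 0 columns of single arrays, no test, error or depth could be given. Members were matched to RefSeq (GRCm38.p6) by accession and symbol, and all 80 matched. Named genes were the 12 largest differences in each direction, every member of the MHC, peptide loading and complement lists, the extremes of the other lists, those next to 2-fold and those with more than 1 cluster. Further members are named so that each is accounted for, except 1 that is not reported here, and list genes outside the rule were named after their values were seen. The members, the 12 role lists and the 7 marker lists were chosen with earlier results of these data known.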

Additional observations from a re-analysis of the deposited data

How the results depend on the processing

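With 1 merged value per age, error and signal over background are unknown, and the fit with moderated variance, the omission of each replicate and the block were not run. No paired analysis was possible because the tables have no columns of single arrays. Against 28 members higher in adult and 13 at E15 by 2-fold or more, and a median of 0.38, re-centring each age gave 7 at E15, annotations not inferred electronically gave 15 of 43 in adult, a like share of fewer clusters, and the splicing index table alone gave 15 of 63 in adult, a lower share, and a median of 0.24. The median was also 0.24 over the 63 clusters with 1 symbol, and 1.16 in the gene-level table alone. A limit of 1.5-fold gave 21 at E15, 3-fold gave 11 in adult and 3 at E15, and 4-fold gave 10 and 2.

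With 1 symbol per cluster the median of MHC class I was 0.74, of cytokines -0.045 and of chemokines 0.14, and it turned to -2.20 for complement components and -1.01 for complement regulators. Re-centring gave 0.40 for complement regulators and -0.086 for cytokines. For epithelial markers, 1 cluster per gene, chosen after seeing the data, gave a median of 0.88 against 1.49. Searching the given strand alone left 7 windows with the ISRE core and 1 with the NF-kB site. The other 45 summary values and 37 of 41 named differences moved by less than 1.5 times or by less than the limit set for them, and 4 small differences moved under re-centring, among them those of Tlr7, H2-Q10 and Cd55, to -0.037, 0.34 and 0.40.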

Other observations

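Tap1, Tap2 and clusters annotated to cell adhesion were kept out of the members, and 15 clusters would otherwise have met the rule. Of these, 5 (33.3%) were higher in adult by 2-fold or more and 5 (33.3%) at E15, against 22.9% and 24.4% of all clusters. Their median difference was -0.15, close to the -0.16 of all clusters. The integrin chain Itgb6 differed by 2.20, the signalling factors Stat5a and Stat5b by 1.31 and 0.99, the anchored chemokine Cx3cl1 by 1.26 and osteopontin (Spp1) by 0.99. Toward E15, the adhesion molecule Cadm1 differed by -2.45, the scavenger receptor Stab1 at -1.84, Spon2 at -1.47, Cd24a at -1.45 and the matrix protein Thbs1 at -1.11. The hyaluronan receptor Cd44 differed by -0.26.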
